A study of Rattus norvegicus with 71 samples.

Results

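Lynx1 and 7 genes of acetylcholine receptors were followed in rat primary cortical cultures exposed to 6 compounds. They were taken by exact gene symbol from a gene count table and make up 8 of its 19771 genes. The set holds Lynx1, the nicotinic subunits Chrna4, Chrnb2 and Chrna7, and the muscarinic receptors Chrm1, Chrm2, Chrm3 and Chrm4. The set was selected on the measured Lynx1 levels after haloperidol in these same libraries, which were lower than at 0 µM. The haloperidol values are therefore given as a description with no test, and the tests concern the other 5 compounds.

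Cortical cells were plated at 150000 per well on microelectrode array plates, and each compound was first added 2 h after plating. On days in vitro 5, 7 and 9 fresh medium with compound was supplied. Each sample is the RNA of 2 to 3 pooled wells taken on day 12. The 71 libraries of polyA-selected RNA form 25 groups of 1 compound at 1 concentration. Haloperidol was used at 0.3, 1 and 3 µM, and domoic acid, cytosine arabinoside and 5-fluorouracil at 0.1, 0.3 and 1 µM. Deltamethrin was used at 0.3, 1, 3 and 10 µM and cypermethrin at 1, 3 and 10 µM. Every compound has its own 0 µM libraries, 16 in all.

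Of the groups, 22 hold 3 libraries. The 0 µM groups of cypermethrin and 5-fluorouracil hold 2, and deltamethrin at 0.3 µM holds 1. The sample titles carry 1 of 2 project prefixes, GRC321 on 24 libraries and GRC327 on 47, and most groups hold 1 GRC321 and 2 GRC327 libraries. The 0 µM group of 5-fluorouracil has GRC327 libraries only. The labels speak of 2 separate cultures but do not say which library came from which, nor whether a prefix marks a culture. The p-values therefore measure the spread between these libraries, which may in part be technical.

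Totals ran between 5.21 M and 43.1 M counts per library, with a median of 10.2 M. Levels are given in CPM, the counts of a gene scaled to a common library total and corrected for library composition, and are compared only within a gene, since the table gives no exon lengths. Differences are log2 fold changes of treated over 0 µM libraries, with their standard error (SE), from 1 edgeR quasi-likelihood fit to all libraries with a project term for each compound. A gene was called at a Benjamini-Hochberg adjusted p under 0.05 over the 15343 genes tested. All 8 genes passed the filter on low counts. All 12 pan-neuronal, all 11 glutamatergic and all 11 astrocyte markers checked also passed, whereas none of 9 microglial markers did.

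Acetylcholine acts on cortical cells through ligand-gated nicotinic channels and through muscarinic receptors coupled to G proteins. Chrna4 and Chrnb2 encode the subunits of the main high-affinity nicotinic receptor of brain, and Chrna7 encodes a subunit that forms calcium-permeable receptors on its own. Lynx1 is a Ly6/uPAR protein held in the membrane by a lipid anchor that binds nicotinic receptors and damps their response, and in mouse visual cortex it limits plasticity in the adult. The M1 and M3 receptors of Chrm1 and Chrm3 couple to Gq and phospholipase C, whereas the M2 and M4 receptors of Chrm2 and Chrm4 couple to Gi/o and lower cyclic AMP.

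The deposited table placed Lynx1 on chromosome 7 at 115982876 to 115988091 on the minus strand. It placed Chrna4 on chromosome 3 at 176527516 to 176548209, Chrna7 on chromosome 1 at 123899657 to 124039197 and Chrnb2 on chromosome 2 at 189088570 to 189096786, all on the minus strand. Chrm1 was placed on chromosome 1 at 224882439 to 224884206 and Chrm2 on chromosome 4 at 64088900 to 64091091, both on the plus strand. Chrm3 was placed on chromosome 17 at 63990599 to 63994170 on the minus strand, and Chrm4 on chromosome 3 at 80833272 to 80841007 on the plus strand. The sources used here do not name the build behind these positions. The span of Chrm4 overlaps Mdk, the gene of the growth factor midkine, on the minus strand. These sources do not say either whether the counting used strand, so reads of the 2 genes cannot be told apart.

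RefSeq promoter sequences of build GRCr8 were matched for 7 of the 8 genes, all but Lynx1. The 250 bases before the start are shown for Chrna7 and Chrm2, which rose with every concentration of cytosine arabinoside, and for Chrna4, which was called in no comparison. Capitals mark matches to the motifs searched on both strands: the GC box GGGCGG, the E-box CACGTG, the CRE half-site TGACG and the EGR site GCGNGGGCG. The EGR site and the GC box share letters and can overlap.
Chrna7, chr1:126249130-126249379, minus strand: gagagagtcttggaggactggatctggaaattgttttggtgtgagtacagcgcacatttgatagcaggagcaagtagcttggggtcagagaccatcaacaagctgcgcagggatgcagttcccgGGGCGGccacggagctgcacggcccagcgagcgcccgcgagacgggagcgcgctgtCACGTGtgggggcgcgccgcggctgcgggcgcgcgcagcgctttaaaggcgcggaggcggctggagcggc
Chrm2, chr4:65982200-65982449, plus strand: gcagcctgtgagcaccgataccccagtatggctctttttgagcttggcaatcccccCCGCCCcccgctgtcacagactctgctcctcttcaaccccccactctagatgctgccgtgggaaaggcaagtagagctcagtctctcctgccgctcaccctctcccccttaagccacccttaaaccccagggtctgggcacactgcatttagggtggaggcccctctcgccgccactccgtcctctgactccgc
Chrna4, chr3:188534527-188534776, minus strand: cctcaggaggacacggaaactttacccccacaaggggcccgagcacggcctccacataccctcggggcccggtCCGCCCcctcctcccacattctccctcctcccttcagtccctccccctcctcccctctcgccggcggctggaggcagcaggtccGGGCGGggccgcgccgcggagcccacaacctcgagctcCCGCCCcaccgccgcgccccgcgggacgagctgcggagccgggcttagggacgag
The Chrna7 window held 1 GC box, at 126 to 121 bases before the start, and 1 E-box at 70 to 65 bases before it, which reads alike on both strands. The Chrm2 window held 1 GC box, at 194 to 189 bases before the start, and the Chrna4 window held 3. Among 33469 RefSeq promoters of the same length, 30.5% held a GC box and 5.59% the E-box. The CRE half-site stood in 18.2% and the EGR site in 4.29% of them, and neither was found in these 3 windows. GC content was 66% for Chrna7, 62% for Chrm2 and 74.4% for Chrna4. These matches are letters in a window and describe no binding.

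In the 16 libraries at 0 µM, 3 genes of the set separated the 2 projects without overlap. The share of all genes that separate the projects in this way was not counted, so this separation is only described. Lynx1 lay between 46.2 and 55.7 CPM in the 5 GRC321 libraries (median 52.7) and between 57.4 and 77.9 CPM in the 11 GRC327 libraries (median 70.1). Chrna4 lay between 38.2 and 47.5 CPM in GRC321 and between 55.3 and 71.9 CPM in GRC327. Its partner subunit Chrnb2 lay between 49.98 and 55.0 CPM in GRC321 and between 72.5 and 87.4 CPM in GRC327. Both Gq-coupled receptors leaned the other way, with overlap. Chrm3 had a median of 89.1 CPM in GRC321 and 60.1 CPM in GRC327, and Chrm1 had 109 and 88.1 CPM in the same order. Chrm2 and Chrm4 were the least abundant by count, at a median of 71 and 126 counts per library, whereas the other 6 genes had medians between 563 and 1072 counts. Relative to its mean, Chrm2 also varied most in untreated libraries, with a coefficient of variation of 24.7%, against 15.99% for Lynx1.

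**Figure D1:**
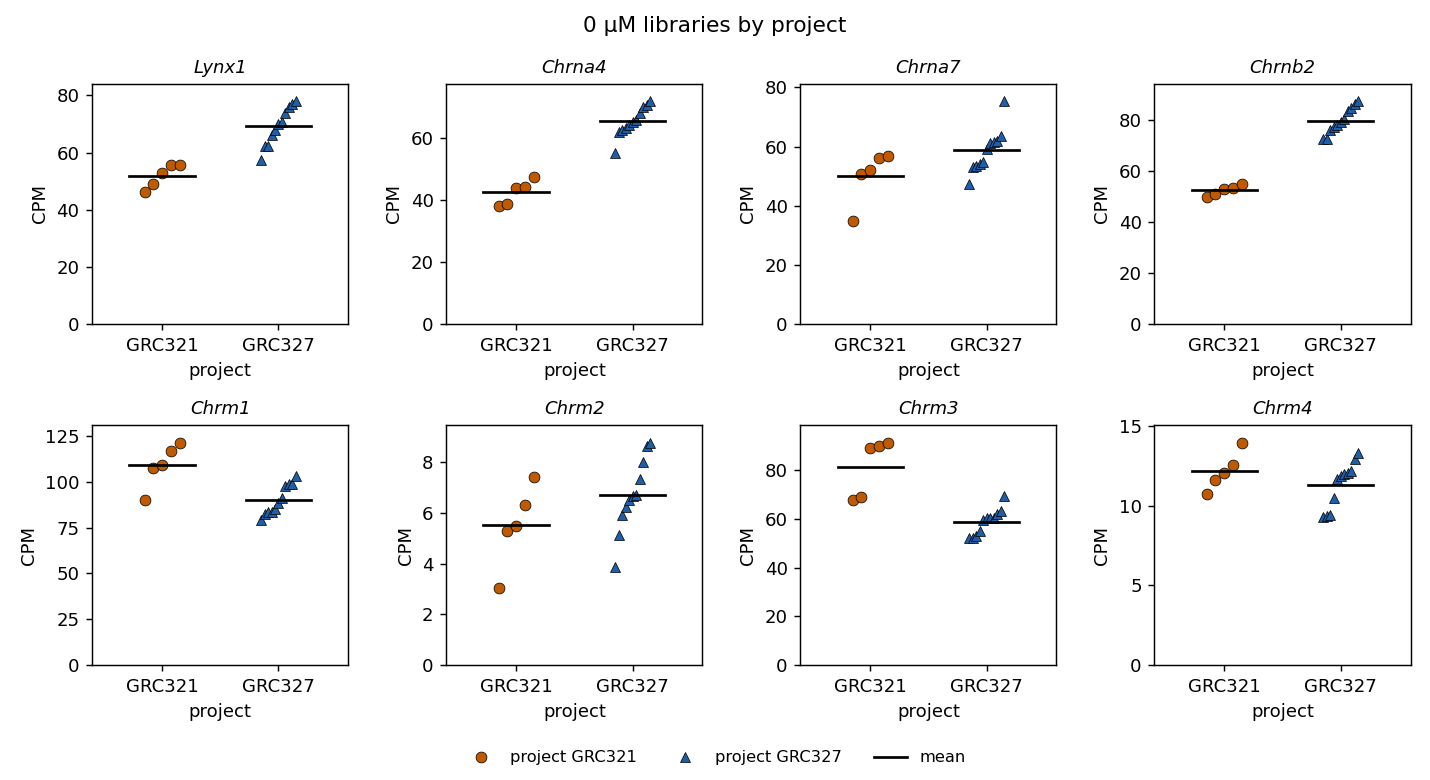
Level of each of the 8 genes in the 16 libraries at 0 µM, in CPM, split by project; each point is 1 library and the bar is the mean. GRC321 and GRC327 libraries do not overlap for Lynx1, Chrna4 and Chrnb2, and Chrm3 and Chrm1 have the higher median in GRC321.

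Haloperidol, an antipsychotic that blocks dopamine D2 receptors, was the comparison on which the set was chosen. At 3 µM, Lynx1 had 27.7 CPM in the GRC321 library and 50.9 and 56.4 CPM in the GRC327 libraries, against 55.7 CPM in the GRC321 library and 62.3 and 77.9 CPM in the GRC327 libraries at 0 µM. The ranges overlapped over all libraries, but within each project the 3 µM libraries were below those at 0 µM. At 0.3 µM the libraries had 52.4, 68.2 and 70.0 CPM, and at 1 µM they had 42.7, 61.0 and 63.4 CPM. The log2 fold change was -0.04 ± 0.12 (SE) at 0.3 µM, -0.24 ± 0.12 at 1 µM and -0.58 ± 0.12 at 3 µM, or 0.671 times the 0 µM level. The 3 values descend with concentration. The GRC321 library at 3 µM held the lowest Lynx1 level of the 3, and without it the log2 fold change at 3 µM was -0.42. In the GRC327 libraries alone it was -0.38.

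At 3 µM haloperidol the receptor genes lay closer to their 0 µM level than Lynx1, which was itself chosen for its fall, so nothing is read from this. At 0.3 and 1 µM, Chrm2 at -0.43 ± 0.26 and -0.33 ± 0.26 lay further from its 0 µM level than Lynx1. At 3 µM, Chrna4 had a log2 fold change of -0.14 ± 0.13, Chrnb2 of -0.19 ± 0.11 and Chrna7 of -0.17 ± 0.14 (SE). For Chrna7 the libraries did not overlap, at 50.6, 51.0 and 56.0 CPM with 3 µM against 56.8, 59.1 and 61.5 CPM at 0 µM. The muscarinic genes had -0.04 ± 0.12 for Chrm1, -0.27 ± 0.26 for Chrm2, -0.06 ± 0.14 for Chrm3 and 0.27 ± 0.19 for Chrm4. Chrm4 was the gene whose libraries all lay above their 0 µM range, at 11.8, 13.7 and 13.8 CPM with 3 µM against 9.37, 11.6 and 11.7 CPM at 0 µM. Of all genes tested, 0.0261% were called at 3 µM, either direction, and nothing is read from that share here.

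Markers of GABAergic neurons were also lower in the haloperidol libraries. Their summed level was 509 to 594 CPM at 3 µM and 734 to 926 CPM at 0 µM, and the median log2 fold change of the 11 markers tested was -0.65. Activity-regulated genes had a median of -0.47 and astrocyte markers of 0.31. The part of these shifts in the Lynx1 values was not tested. In bulk RNA, fewer cells of a type and less RNA per cell cannot be told apart.

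**Figure D2:**
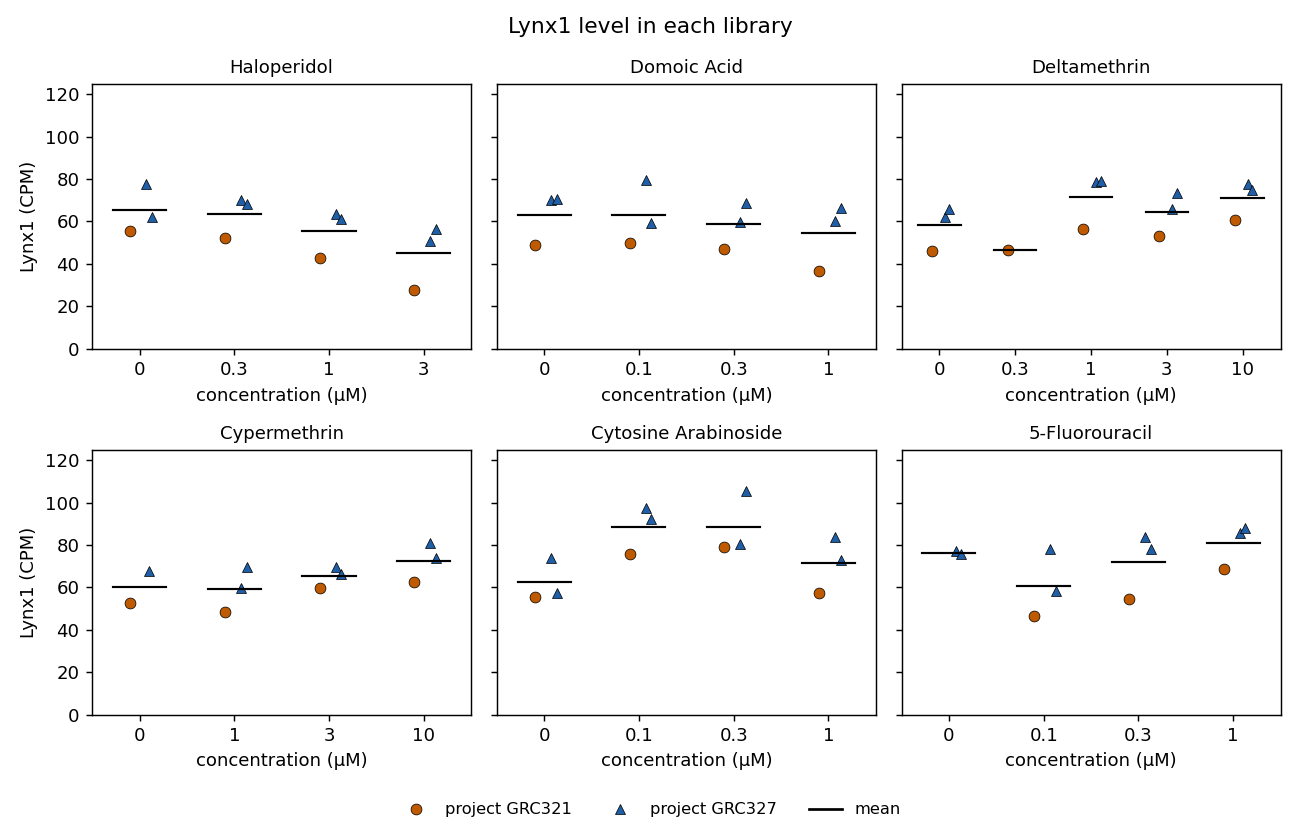
Lynx1 level in CPM against concentration in µM for each compound; each point is 1 library, marked by project, and the short bar is the group mean. With haloperidol the means descend to 45.0 CPM at 3 µM, and with cytosine arabinoside they stand at 88.6 CPM at 0.1 µM and 88.3 CPM at 0.3 µM, against 62.3 CPM at 0 µM.

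Cytosine arabinoside, a nucleoside analogue with arabinose in place of ribose that blocks DNA synthesis, gave the 12 calls made among the 128 tests of these genes in the 5 other compounds. All 12 were higher than at 0 µM. At 0.1 µM, 4 of 8 genes rose, where 9.13% of all genes were called in either direction, 2.38% higher and 6.75% lower. At 0.3 µM, 5 of 8 rose, against 17.6% of all genes in either direction, 5.96% higher and 11.7% lower. At 1 µM, 3 of 8 rose; that share is close to the 36.0% of all genes called in either direction, of which 16.6% were higher and 19.4% lower. The median log2 fold change of the 8 genes was 0.35, 0.49 and 0.23 at 0.1, 0.3 and 1 µM, and that of all genes was 0.01, 0.02 and 0.03. Without a project term, 0 of the 8 genes were called at 0.1 µM and 3 at 0.3 µM, with log2 fold changes of nearly the same size.

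Lynx1 rose at the 2 lower concentrations. It had 76.0, 92.3 and 97.5 CPM at 0.1 µM, 78.9, 80.6 and 105 CPM at 0.3 µM and 57.6, 73.1 and 83.9 CPM at 1 µM, against 55.7, 57.4 and 73.9 CPM at 0 µM. The libraries at 0.1 and 0.3 µM all lay above the 0 µM range, and those at 1 µM overlapped it. The log2 fold change was 0.50 ± 0.12 (SE) at 0.1 µM (edgeR adjusted p = 0.00209) and 0.50 ± 0.12 at 0.3 µM (edgeR adjusted p = 0.000989). In GRC327 alone these values were 0.53 and 0.50, and in GRC321 the single treated library lay above its control at both concentrations. At 1 µM the log2 fold change was 0.19 ± 0.12 (edgeR adjusted p = 0.201).

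Chrna7 showed the strongest response of the 8 genes and rose at every concentration. It had 67.6, 79.7 and 81.2 CPM at 0.1 µM, 103, 112 and 113 CPM at 0.3 µM and 188, 225 and 253 CPM at 1 µM, against 52.2, 54.1 and 54.7 CPM at 0 µM. Each group lay above the one before it with no overlap. The log2 fold change was 0.50 ± 0.14 (SE) at 0.1 µM (edgeR adjusted p = 0.013), 1.03 ± 0.14 at 0.3 µM (adjusted p = 7.19e-08) and 2.04 ± 0.14 at 1 µM (adjusted p = 3.03e-17), a 4.12-fold level. In GRC327 alone it was 0.57, 0.98 and 2.14. The call at 0.1 µM was lost without either GRC327 library at 0 µM (log2 fold change 0.48 and 0.49) or without the second GRC327 library at 0.1 µM (0.48).

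The subunits of the high-affinity receptor had smaller values. Chrnb2 was called at 0.1 µM, with 79.6, 97.5 and 102 CPM against 55.0, 77.4 and 87.4 CPM at 0 µM and a log2 fold change of 0.37 ± 0.11 (SE; edgeR adjusted p = 0.0248). Its ranges overlapped across projects and separated within each. That call was lost without the GRC321 library at 0.1 µM (0.19) and without the first GRC327 library at 0 µM (0.31). It was also lost in GRC327 alone (0.278), with limma (0.315) and without a project term (0.344). At 1 µM Chrnb2 had 43.4 CPM in the GRC321 library and 102 and 105 CPM in the GRC327 libraries, against 55.0 CPM in GRC321 and 77.4 and 87.4 CPM in GRC327 at 0 µM. It was thus lower in GRC321 and higher in GRC327, and its log2 fold change over both projects was 0.14 ± 0.11 (edgeR adjusted p = 0.35). In GRC327 alone it was 0.34 (adjusted p = 0.0234). With the 0 µM libraries of all compounds as the control, Chrnb2 was called at 0.3 µM (0.27) and 1 µM (0.20). Chrna4 was called at no concentration and had -0.09 ± 0.13 at 1 µM (edgeR adjusted p = 0.604). The GRC321 library at 1 µM had 9.12% of its counts on mitochondrial genes, the highest share of the 71 libraries, against 4.61% in the GRC321 library at 0 µM and 3.66% and 3.79% in the GRC327 libraries at 1 µM. It lay below its GRC321 control for Chrna4, Chrnb2, Chrm1 and Chrm4 and above it for Lynx1, Chrna7, Chrm2 and Chrm3. Without it 5 of the 8 genes were called at 1 µM in place of 3. The additions were Chrnb2 at 0.35 (edgeR adjusted p = 0.0122) and Chrm3 at 0.40 (adjusted p = 0.0491).

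Both Gi/o-coupled receptor genes rose. Chrm2 had 7.41, 8.99 and 12.2 CPM at 0.1 µM, 10.0, 11.7 and 11.8 CPM at 0.3 µM and 12.6, 12.8 and 14.7 CPM at 1 µM, against 5.15, 5.29 and 6.24 CPM at 0 µM. All treated libraries lay above the 0 µM range. The log2 fold change was 0.77 ± 0.25 (SE; edgeR adjusted p = 0.0435), 1.01 ± 0.25 (adjusted p = 0.00244) and 1.26 ± 0.25 (adjusted p = 4.56e-05) at 0.1, 0.3 and 1 µM, the last a 2.4-fold level. In GRC327 alone it was 0.90, 0.93 and 1.26, and the value at 0.1 µM was not called there (adjusted p = 0.0787). Leaving out any 1 of 5 of the 6 libraries compared at 0.1 µM ended that call, with log2 fold changes of 0.57 to 0.85. The exception was the GRC321 library at 0.1 µM.

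Chrm4 had 13.7, 13.9 and 14.8 CPM at 0.1 µM, 16.4, 16.7 and 21.7 CPM at 0.3 µM and 10.8, 15.7 and 20.3 CPM at 1 µM, against 9.42, 12.0 and 12.5 CPM at 0 µM. It rose at 0.3 µM by 0.69 ± 0.19 (SE; edgeR adjusted p = 0.00741) and at 1 µM by 0.47 ± 0.19 (adjusted p = 0.0463) on the log2 scale. At 1 µM the GRC321 library lay below its 0 µM control, at 10.8 against 12.5 CPM, and both GRC327 libraries lay above theirs; in GRC327 alone the log2 fold change was 0.76. The call at 1 µM was lost without a filter on low counts (edgeR adjusted p = 0.0563), without a project term (0.084 by edgeR, adjusted) and with limma (adjusted p = 0.0931). It was also lost without any 1 of the 4 GRC327 libraries compared (0.26 to 0.49), and that at 0.3 µM without the first GRC327 library of either group (0.54 at 0 µM and 0.57 at 0.3 µM). Mdk, whose span overlaps that of Chrm4, went the opposite way. It had 26.4 ± 4.89, 12.6 ± 1.62 and 2.64 ± 1.66 CPM at 0.1, 0.3 and 1 µM, against 53.3 ± 14.1 CPM at 0 µM (SD, n = 3 each). Its log2 fold change at 1 µM was -4.27 ± 0.31 (SE; edgeR adjusted p = 1.23e-16), and its part in the Chrm4 counts was not tested.

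Of the Gq-coupled receptors, Chrm3 was called at 0.3 µM. It had 142 CPM in the GRC321 library and 75.5 and 92.6 CPM in the GRC327 libraries, against 89.8 CPM in GRC321 and 59.7 and 69.5 CPM in GRC327 at 0 µM. The log2 fold change was 0.48 ± 0.14 (SE; edgeR adjusted p = 0.0112). It missed the threshold in GRC327 alone (0.38), without the GRC321 library at 0.3 µM (0.33) and without the first GRC327 library at 0 µM (0.42). At 0.1 and 1 µM its log2 fold change was 0.26 ± 0.14 and 0.28 ± 0.14, not called, and differences between concentrations were not tested. With the 0 µM libraries of all compounds as the control, Chrm3 was called there too, at 0.40 and 0.42. Chrm1 was not called, with log2 fold changes of 0.14, 0.28 and -0.07 at 0.1, 0.3 and 1 µM.

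**Figure D3:**
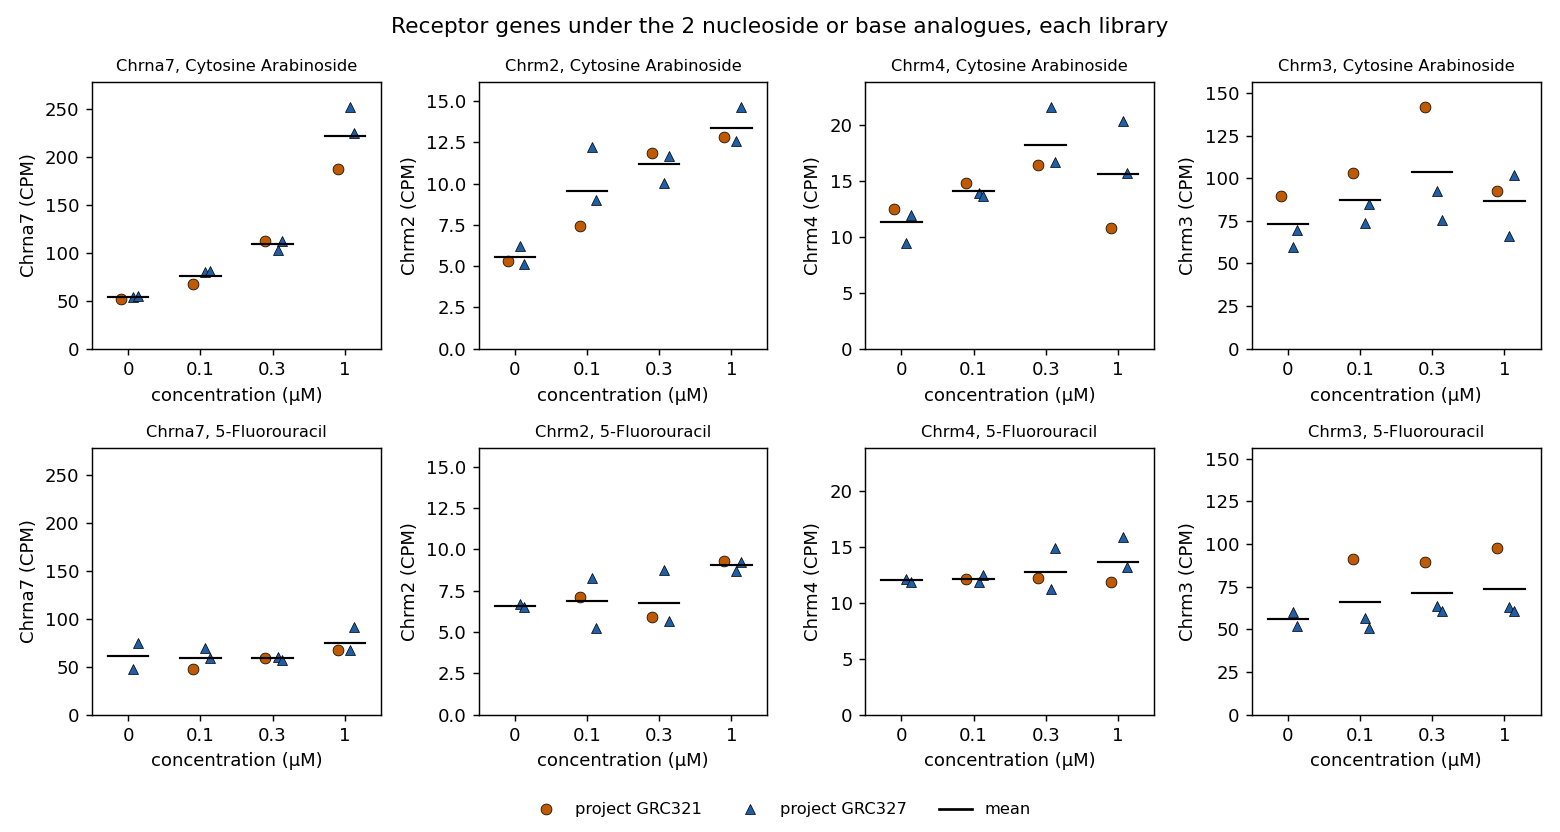
Levels of Chrna7, Chrm2, Chrm4 and Chrm3 in CPM against concentration in µM of cytosine arabinoside and of 5-fluorouracil; each point is 1 library, marked by project, and the bar is the group mean. Chrna7 reaches 188 to 253 CPM at 1 µM cytosine arabinoside and 67.2 to 91.3 CPM at 1 µM 5-fluorouracil.

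Markers of several cell types moved in the same libraries. Oligodendrocyte lineage markers fell at all 3 concentrations, 13 of 14 each time, and their summed level was 160 to 183 CPM at 0.1 µM, 115 to 132 CPM at 0.3 µM and 80.5 to 109 CPM at 1 µM, against 1445 to 1790 CPM at 0 µM. Astrocyte markers fell in 5, 9 and 10 of 11 cases, and 1 rose at 1 µM. Their summed level was 194 to 237 CPM at 1 µM and 2329 to 3472 CPM at 0 µM. GABAergic markers rose in 5, 6 and 8 of 11 cases, and 1 fell at 1 µM. Their summed level was 1355 to 1465, 1652 to 1960 and 3122 to 4536 CPM, against 704 to 886 CPM at 0 µM. Of all genes, 2.38%, 5.96% and 16.6% were called higher at 0.1, 0.3 and 1 µM, and 6.75%, 11.7% and 19.4% lower. The median log2 fold change of 12 pan-neuronal markers was 0.30, 0.33 and 0.19, and that of 11 glutamatergic markers was 0.11, 0.19 and 0.07. All 12 activity-regulated genes rose at 1 µM, to a summed 1542 to 2510 CPM, against 311 to 375 CPM at 0 µM. The part of these shifts in the 12 calls was not tested.

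5-Fluorouracil, a fluorinated uracil that lacks a sugar and blocks thymidylate synthesis once metabolised, was tested at the same concentrations. It gave no call among the 8 genes, with 0.00652%, 0.0456% and 4.03% of all genes called at 0.1, 0.3 and 1 µM. The largest values came at 1 µM. With the 0 µM libraries of all compounds as the control, 4 genes were called there, Lynx1 (0.35), Chrna7 (0.43), Chrnb2 (0.25) and Chrm2 (0.55). Against its own controls, Chrna7 had 67.2, 67.6 and 91.3 CPM, against 47.3 and 75.2 CPM at 0 µM, a log2 fold change of 0.36 ± 0.16 (SE; edgeR adjusted p = 0.238). Its 2 untreated libraries differed widely and the ranges overlapped. Without the higher of the 2 the log2 fold change was 0.74, with the lone library assumed to vary like the other groups. With each library left out in turn, that of Chrna7 ran from 0.07 to 0.74. Chrm2 had 8.69, 9.23 and 9.29 CPM, all above the 6.52 and 6.69 CPM at 0 µM, with a log2 fold change of 0.48 ± 0.29 (edgeR adjusted p = 0.454). Lynx1 at 1 µM had 68.6 CPM in the GRC321 library and 85.6 and 87.9 CPM in the GRC327 libraries. Its 0 µM libraries, both GRC327, had 75.8 and 77.0 CPM, so the treated GRC327 libraries lay above them. The Lynx1 log2 fold change was 0.24 ± 0.13 (edgeR adjusted p = 0.414). At 1 µM, 13 of 14 oligodendrocyte lineage markers fell, to a summed 183 to 216 CPM against 1653 to 1696 CPM at 0 µM, and 4 of 11 astrocyte markers fell.

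The pyrimidine analogues were compared directly as the difference of their log2 fold changes, cytosine arabinoside minus 5-fluorouracil. Chrna7 differed by 1.68 ± 0.21 (SE) at 1 µM, with a 95% interval of 1.26 to 2.1 (edgeR adjusted p = 1.7e-08), where 12.9% of all genes were called. At 0.3 µM the difference was 1.01 ± 0.21, with an interval of 0.59 to 1.44 (edgeR adjusted p = 0.000628; 5.89% of all genes called). It lost its call without the higher 5-fluorouracil control, at 0.64. For Lynx1 the difference was 0.68 ± 0.18 at 0.1 µM, with an interval of 0.33 to 1.04 (edgeR adjusted p = 0.0132; 3.84% of all genes called). This call was lost without the second GRC327 library of cytosine arabinoside at 0 µM (0.58), of 5-fluorouracil at 0.1 µM (0.57) or of 5-fluorouracil at 0 µM (0.70), in GRC327 alone (0.69) and without a project term (0.83). At 1 µM the Lynx1 difference was -0.04, with an interval of -0.40 to 0.31. Chrm2 differed by 0.79 ± 0.38 at 1 µM, with an interval of 0.03 to 1.54, and was not called (edgeR adjusted p = 0.187). No other difference among the 8 genes was called for this pair.

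**Figure D4:**
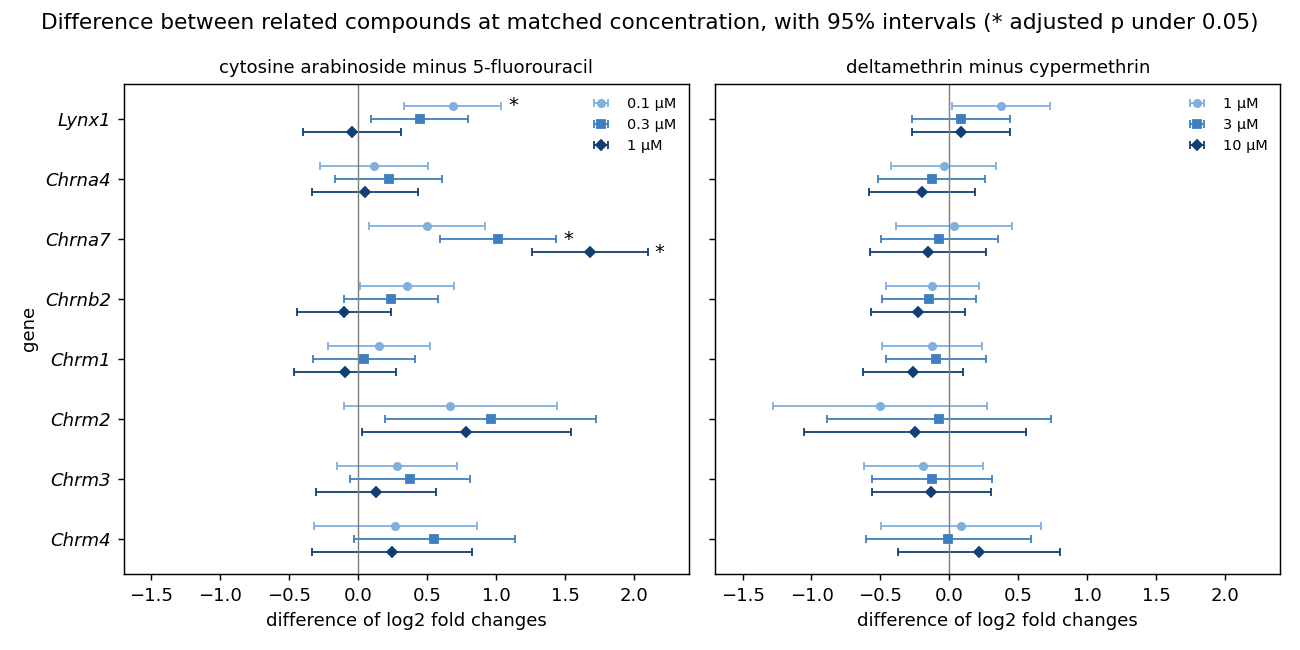
Difference between the log2 fold changes of 2 related compounds at the same concentration, with its 95% interval, for each of the 8 genes: cytosine arabinoside minus 5-fluorouracil, and deltamethrin minus cypermethrin; asterisks mark an edgeR adjusted p under 0.05. The asterisks stand at Lynx1 at 0.1 µM and at Chrna7 at 0.3 and 1 µM, all for the first pair.

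Deltamethrin and cypermethrin are pyrethroid insecticides that hold sodium channels open; both carry a cyano group, and they differ in bearing bromine or chlorine on the vinyl group. Neither gave a call among the 8 genes, and 0% of all genes were called by edgeR at any concentration of either, against 0 to 4 genes with DESeq2. With deltamethrin at 10 µM, Lynx1 had 60.7, 74.7 and 77.6 CPM, against 46.2, 62.2 and 66.0 CPM at 0 µM, a log2 fold change of 0.30 ± 0.12 (SE; edgeR adjusted p = 0.959). Chrna7 had 59.6, 69.7 and 72.6 CPM, against 50.7, 53.2 and 53.4 CPM at 0 µM, with 0.35 ± 0.14 (edgeR adjusted p = 0.959). The Chrna7 libraries did not overlap, and the Lynx1 libraries separated within each project. At 0.3 µM, with 1 library, Lynx1 had a log2 fold change of -0.03. It had 0.30 ± 0.12 at 1 µM and 0.15 ± 0.12 at 3 µM, not called, and separated within each project there too. How many of all genes separate in this way was not counted, here or for the other compounds, so separation alone is only described. With cypermethrin at 10 µM, Chrna7 had 64.4, 70.8 and 78.5 CPM, against 34.9 and 63.7 CPM at 0 µM, and 0.51 ± 0.16 (edgeR adjusted p = 0.58). Without the GRC327 library at 0 µM it had 0.95, again with the lone control assumed to vary like the other groups. With each library left out in turn, Chrna7 ran from 0.20 to 0.95. Lynx1 had 0.22 ± 0.13 with cypermethrin at 10 µM (edgeR adjusted p = 0.755).

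No difference between the pyrethroids was called at the 3 concentrations that they share. At 10 µM, deltamethrin minus cypermethrin was 0.08 for Lynx1, with a 95% interval of -0.27 to 0.44, and -0.15 for Chrna7, with an interval of -0.58 to 0.27. The values for the other genes ran between -0.26 for Chrm1 (-0.63 to 0.10) and 0.21 for Chrm4 (-0.37 to 0.80). At 1 µM the Lynx1 difference was 0.37 ± 0.18, with an interval of 0.02 to 0.73 (edgeR adjusted p = 0.652). These intervals leave room for differences of either sign in most genes.

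Domoic acid, an algal toxin that activates kainate-type glutamate receptors, gave no call among the 8 genes. At 0.3 µM, 1.51% of all genes were called, 1.21% higher, and 0% at 0.1 and at 1 µM. Lynx1 had 36.7, 60.2 and 66.5 CPM at 1 µM, against 48.9, 70.1 and 70.6 CPM at 0 µM, with a log2 fold change of -0.23 ± 0.12 (SE; edgeR adjusted p = 1). Its libraries were below those at 0 µM within each project. The smallest adjusted p among the 8 genes was 0.286, for Chrm4 at 0.3 µM, with a log2 fold change of 0.34 ± 0.19. Over the 4 compounds other than haloperidol and cytosine arabinoside, 0 of 104 tests of these genes were called by edgeR and 5 had an unadjusted p under 0.05. DESeq2 and limma likewise called 0 of 8 at the highest concentration of each of these compounds.

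**Figure D5:**
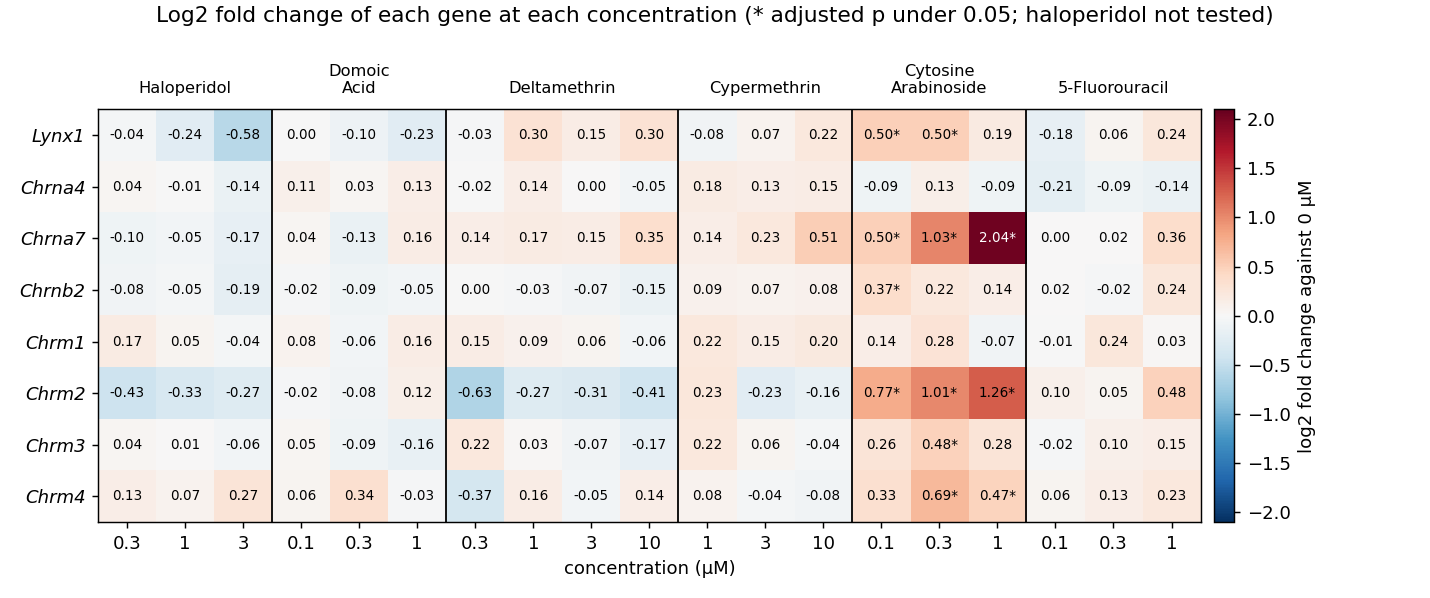
Log2 fold change over 0 µM of the 8 genes in all 19 comparisons of a concentration with its 0 µM libraries; color gives the value, and asterisks mark an edgeR adjusted p under 0.05. The 12 asterisks all stand under cytosine arabinoside, from 0.37 for Chrnb2 at 0.1 µM to 2.04 for Chrna7 at 1 µM; haloperidol is not marked because the genes were selected on that comparison.

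Ordered by mean level over the 22 groups of 3 libraries, Lynx1 stood highest with cytosine arabinoside at 0.1 µM (88.6 ± 11.2 CPM; SD, n = 3) and at 0.3 µM (88.3 ± 14.8 CPM), then with 5-fluorouracil at 1 µM (80.7 ± 10.5 CPM). Domoic acid at 1 µM (54.5 ± 15.7 CPM) and haloperidol at 3 µM (45.0 ± 15.2 CPM) closed the order. None of the 21 gaps between neighbours exceeded their pooled SD, a spread that includes the offset between the projects. Within projects, haloperidol at 3 µM had 27.7 CPM in GRC321 and a mean of 53.6 CPM in GRC327, and domoic acid at 1 µM had 36.7 and 63.4 CPM. For Chrna7, 2 of 21 gaps exceeded their pooled SD. These lay between cytosine arabinoside at 1 µM (222 ± 32.7 CPM) and 0.3 µM (109 ± 5.73 CPM), and between 0.3 µM and 0.1 µM (76.2 ± 7.44 CPM). Chrm2 also had 2 of 21 such gaps. One lay between cytosine arabinoside at 1 µM (13.4 ± 1.14 CPM) and 0.3 µM (11.2 ± 0.998 CPM). The other lay between 5-fluorouracil at 1 µM (9.07 ± 0.334 CPM) and the 0 µM libraries of deltamethrin (7.57 ± 1.01 CPM). The remaining receptor genes had 0 of 21.

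Other genes of acetylcholine signalling were followed as 5 lists, chosen with earlier results of these data known. Of 14 other receptor subunits, 7 were tested, and 2 rose and none fell at 1 µM cytosine arabinoside, where 16.6% of all genes were higher and 19.4% lower. Chrm5, the Gq-coupled M5 receptor, had 6.62 ± 2.52 CPM with 1 µM and 1.36 ± 0.20 CPM at 0 µM (SD, n = 3 each), and its log2 fold change was 2.27 ± 0.45 (SE; edgeR adjusted p = 5.69e-05). Chrnb4, a subunit of ganglionic nicotinic receptors, had 0.994 ± 0.354 CPM with 1 µM and 0.299 ± 0.190 CPM at 0 µM. Its log2 fold change was 1.89 ± 0.72 (edgeR adjusted p = 0.0353). Over the 16 libraries at 0 µM of all compounds it reached at most 0.807 CPM. A group of 1 library can meet the filter, so Chrnb4 may have been tested only through treated libraries, and its call is not read further. Of 9 other Ly6/uPAR proteins, the family of Lynx1, 5 were tested and 3 rose, against the same 16.6% of all genes. Lypd6b changed by 0.92 ± 0.22 (edgeR adjusted p = 0.00085), Lypd6 by 0.65 ± 0.20 (adjusted p = 0.00771) and Ly6e by 0.52 ± 0.17 (adjusted p = 0.0119), at the concentration at which Lynx1 was not called.

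Of 7 genes of receptor assembly and clustering, 5 were tested, and 1 rose and 1 fell at 1 µM cytosine arabinoside, a share near the 36.0% of all genes called in either direction. Tmem35a encodes NACHO, a chaperone that assembles Chrna7 receptors. It had 188 ± 71.4 CPM with 1 µM and 73.5 ± 21.6 CPM at 0 µM (SD, n = 3 each), and its log2 fold change was 1.31 ± 0.17 (SE; edgeR adjusted p = 8.31e-09). Lrp4, the agrin receptor of the neuromuscular junction, had 2.31 ± 1.72 CPM with 1 µM and 57.0 ± 11.3 CPM at 0 µM, with -4.48 ± 0.32 (edgeR adjusted p = 7.64e-17). Of 8 genes of acetylcholine synthesis, transport and breakdown, 7 were tested, and 2 rose and 2 fell, against 16.6% of all genes higher and 19.4% lower. Prima1, which anchors acetylcholinesterase in membranes, changed by 1.2 ± 0.35 (edgeR adjusted p = 0.00552). The choline transporter gene Slc44a1 changed by -1.82 ± 0.18 (adjusted p = 5.79e-12), and Bche, butyrylcholinesterase, by -0.85 ± 0.24 (adjusted p = 0.00433).

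All 17 muscarinic effector genes were tested, and 5 rose and 5 fell at 1 µM cytosine arabinoside, where 16.6% of all genes were higher and 19.4% lower. Kcnj3, a potassium channel subunit opened through Gi/o-coupled receptors, had 66.4 ± 28.7 CPM with 1 µM and 21.9 ± 2.24 CPM at 0 µM (SD, n = 3 each), with a log2 fold change of 1.53 ± 0.19 (SE; edgeR adjusted p = 3.11e-09). The inhibitory G protein subunits Gnai3 and Gnai2 changed by -0.59 ± 0.10 (adjusted p = 3.5e-06) and -0.96 ± 0.16 (adjusted p = 4.86e-06). With 1 µM 5-fluorouracil, Lrp4 at -1.14 ± 0.29 (edgeR adjusted p = 0.0123) and Slc44a1 at -1.2 ± 0.20 (adjusted p = 3.85e-05) were the calls among the 5 lists. Of all genes, 4.03% were called there, 0.691% higher and 3.34% lower, and nothing is read from the list calls as a set. Domoic acid at 1 µM and the pyrethroids at 10 µM had 0 calls in these lists. The oligodendrocyte and astrocyte markers given above moved in the same libraries, and their part in these values was not tested.

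After 3 µM haloperidol, for which values only are given, Lypd6 had a log2 fold change of -0.39 ± 0.20 (SE), Lypd6b of -0.28 ± 0.24 and Lypd1 of 0.27 ± 0.22. Ache, the acetylcholinesterase gene, had -0.52 ± 0.23 and Slc5a7, the high-affinity choline transporter, -0.47 ± 0.42. Colq, the collagen tail of acetylcholinesterase, had 0.77 ± 1.12, from a median of 0.223 CPM over the 16 libraries at 0 µM of all compounds. Among effectors, Rgs4, which shortens Gi/o and Gq signals, had -0.45 ± 0.22. The M-current channel gene Kcnq3 had -0.28 ± 0.21 and Plcb4 had -0.25 ± 0.15. Chat, which makes acetylcholine, was at 0 in 10 of the 16 libraries at 0 µM.

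Likeness to each gene was described over the 71 libraries by Pearson's r of log2 CPM, after the mean of each compound and project was removed. These points share libraries and depth, and the concentrations of cytosine arabinoside remain in them. The closest to Lynx1 were Gria1, an AMPA receptor subunit (r = 0.65), Ripor2 and Rph3a (both r = 0.62), Apba1 (r = 0.61) and Hspa12a (r = 0.60). The closest to Chrna7 were Gad2, a GABA-synthesising enzyme, and Sorcs3, both at r = 0.89. Gad2 itself rose with 1 µM cytosine arabinoside, by 2.44 ± 0.15 (SE; edgeR adjusted p = 2.79e-19). The closest match of the other genes ran from r = 0.74 for Chrnb2 with Atp6v0a1 to r = 0.62 for Chrm4 with Kctd3. Within the set the closest pair was Chrna4 and Chrm1 (r = 0.62), followed by Chrm1 and Chrm3 (r = 0.53). Chrna7 and Chrm2 had r = 0.46, and Lynx1 and Chrnb2 had r = 0.45.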

How the data were processed

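The deposited gene table holds estimated counts per gene, made by the authors with Partek and STAR, per the submitters' processing notes; versions, annotation and strand setting are not given in the sources used here. A companion deposited table holds CPM, counts scaled to a common library total plus an offset of 0.0001, as recomputed from the counts to within a relative difference of 9.4e-06. Of the count values, 20.6% were not whole (tolerance 1e-06), and all were rounded. All columns were matched to samples by title. Groups come from the titles, and libraries were numbered within a group in accession order.

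The 71 libraries were fitted together with edgeR 4.0.16 in R 4.3.3 (quasi-likelihood F test, 2-sided), with a coefficient per group and a project term per compound (31 columns, 40 residual degrees of freedom), TMM scaling and filterByExpr with a minimum count of 10. This left 15343 of 19771 genes, with p-values adjusted by Benjamini-Hochberg within each comparison. Alternatives used DESeq2 1.42.0, its size factors, other filters, other project terms, limma 3.58.1 on log2 CPM with a pseudocount of 0.5, pooled 0 µM libraries, and each library left out in turn. The members, lists and tests were chosen with earlier results of these data known. All 8 members were described throughout. List genes were named by smallest p, up to 3 per list at the highest concentration. For haloperidol they were named by largest absolute log2 fold change instead. No set test was run. The fit also yields p-values for haloperidol, which are not used for the members because they were selected on that comparison.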

Additional observations from a re-analysis of the deposited data

Results flagged for a closer look

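The response to cytosine arabinoside and the response to 5-fluorouracil differed beyond the spread between libraries for Lynx1 and for Chrna7, by a test of the difference itself. The log2 difference, cytosine arabinoside minus 5-fluorouracil, was 0.68 for Lynx1 at 0.1 µM (edgeR adjusted p = 0.0132). For Chrna7 it was 1.01 at 0.3 µM (adjusted p = 0.000628) and 1.68 at 1 µM (adjusted p = 1.7e-08). For Lynx1 at 0.1 µM the adjusted p lay between 0.00224 and 0.121 with 1 library left out, and it reached 0.432 without a project term and 0.0584 in GRC327 alone. With 1 library left out, that for Chrna7 at 0.3 µM lay between 2.81e-05 and 0.114. The 5-fluorouracil side of each difference rests on 2 untreated libraries, both GRC327, whose Chrna7 levels were 47.3 and 75.2 CPM. Groups of 3 or fewer libraries were not checked for libraries that stand apart.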

How the results depend on the processing

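For cytosine arabinoside at 1 µM, the 3 calls among the 8 genes became 5 with the 0 µM libraries of all compounds pooled, and 2 to 5 with 1 library left out; Chrm4 lost its call, leaving 2, with no filter, no project term and limma. At 0.1 µM the 4 calls became 0 without a project term, 2 in GRC327 alone and 2 with limma, and 1 to 3 with 1 library left out. At 0.3 µM the 5 calls became 3 without a project term, and 3 to 5 with 1 library left out. For 5-fluorouracil at 1 µM, 0 calls became 4 with pooled controls, and 0 to 1 with 1 library left out. For cypermethrin at 10 µM, 0 calls became 0 to 1 with 1 library left out. The cause was not tested. The alternatives followed 20 of the tested values, most of them picked because they were called, and none of these changed sign. The other tested values were not followed. For haloperidol at 3 µM, Chrm1 (-0.04) changed sign in GRC327 alone (0.03) and without either GRC321 library (0.01). The Chrna7 and Chrm2 calls at 0.3 and 1 µM cytosine arabinoside and the Chrna7 difference from 5-fluorouracil at 1 µM were kept in all alternatives run. The haloperidol value of Lynx1 at 3 µM lay between -0.70 and -0.42 with 1 library left out. Each of the 20 tested values followed was paired with every alternative run for it. Of these pairings, 270 kept the direction and side of the threshold, 40 lost the call and 3 gained it. Leave-one-out fits kept the dispersion trend of the full fit. No paired analysis was possible because the labels carry no replicate numbers. Depth limits Chrm2 and Chrm4 most, at medians of 71 and 126 counts.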
